A study of Homo sapiens with 4 samples.

Results

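The miR-200 family is a group of microRNAs (miRNAs, short RNAs that pair with messenger RNAs and lower their output) made from 5 hairpins, MIR200B, MIR200A and MIR429 on chromosome 1 and MIR200C and MIR141 on chromosome 12. Rows of the table were taken by name, and 9 of 1345 rows belonged to the family. These were both strands of miR-200a, miR-200b, miR-200c and miR-141, and miR-429, which has 1 row. The rule used names only, but the family was chosen with earlier results of these data known. All 9 rows passed the level filter (mean level 10 or more), as did 709 rows in all.

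Small-RNA sequencing gave the levels of mature miRNAs in 4 libraries of the human colorectal carcinoma line HCT116. The cells carried a short hairpin RNA (shRNA), inducible with doxycycline, against SAE2, the catalytic partner in the enzyme that readies the small protein SUMO for attachment to other proteins. The plus group has 2 libraries, replicate 2 from the sh2 line and replicate 1 with no shRNA number in its label. The minus group has 2 libraries, replicate 1 from the sh1 line and replicate 2 from the sh2 line. Plus and minus were read as with and without induction, although the protocol of 3 days of doxycycline is given for every library. Plus replicate 1 was placed in the sh1 line by elimination, and only for values by line and for fits with the line as a block. The labels do not say whether a line is a single clone or whether the cultures were separate. The spread behind each p-value is thus that between these lines and may be partly technical. In the limma fits it is borrowed largely from other miRNAs. All libraries carry an SAE2 shRNA, so effects of doxycycline itself cannot be told apart from those of the knockdown, and miRNA libraries do not measure SAE2.

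As background, the family is known for keeping cells epithelial. Its members repress ZEB1 and ZEB2, transcription factors that shut off E-cadherin, and ZEB1 and ZEB2 in turn repress both miR-200 clusters. Loss of the family accompanies the change of epithelial into mesenchymal cells, and high levels mark colon epithelium. A miRNA finds its targets mainly through its seed, bases 2 to 8, and each hairpin gives a strand from its 5' arm (5p) and a strand from its 3' arm (3p), of which the more abundant is called the main strand here.

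The main strands are shown because the family holds a pair of seeds. Sequences are from RefSeq (GRCh38.p14), 5' to 3', with the seed in capitals.
miR-200b-3p: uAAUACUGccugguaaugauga
miR-200c-3p: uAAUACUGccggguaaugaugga
miR-429: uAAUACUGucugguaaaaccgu
miR-200a-3p: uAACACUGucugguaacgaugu
miR-141-3p: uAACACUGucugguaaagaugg
miR-200b-3p, miR-200c-3p and miR-429 share 1 seed, and miR-200a-3p and miR-141-3p the other. Counted from 1 at the 5' end, the seeds differ by U4C, with the base of miR-200b-3p first. Among 2370 mature miRNA names in the RefSeq table, the first seed occurred in 3 names and the other in 2, all of them in the family. Over 22 positions miR-200b-3p and miR-200c-3p, from different chromosomes, were identical at 20 and differed by U11G and A22G. miR-200a-3p and miR-141-3p were also identical at 20, while miR-200c-3p and miR-429 were identical at 15.

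The hairpins lie close together on the plus strand of each chromosome. In GRCh38, MIR200B (chr1:1167104-1167198), MIR200A (chr1:1167863-1167952) and MIR429 (chr1:1169005-1169087) span 1984 bases. MIR200C (chr12:6963699-6963766) and MIR141 (chr12:6964097-6964191) span 493 bases within the intron of MIR200CHG, a long non-coding RNA gene. The files hold no coordinates, and these positions serve as annotation only. The hairpins of miR-200c and miR-200b are shown because their 5p strands went in opposite directions, although the change of miR-200c-5p did not pass. The 5p and then the 3p strand are in capitals.
MIR200C: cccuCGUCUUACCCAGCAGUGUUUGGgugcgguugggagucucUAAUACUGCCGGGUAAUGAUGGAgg
MIR200B: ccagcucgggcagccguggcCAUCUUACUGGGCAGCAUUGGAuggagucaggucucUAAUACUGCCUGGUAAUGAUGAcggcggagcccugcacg

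The known targets show what the seeds recognise. The reverse complements of the seeds are CAGTATT, for miR-200b, miR-200c and miR-429, and CAGTGTT, for miR-200a and miR-141, and they were searched on the sense strand after the stop codon of the GENCODE 29 transcript with the longest 3' UTR. ZEB1 held 6 matches of the first and 3 of the other in 2549 bases. Of 2353 genes with a 3' UTR within 20% of that length, 26.2% held the first match and 29.5% the other at least once. At least as many matches as in ZEB1 were held by 0.0425% and 0.680% of them, ZEB1 included. ZEB2 held 5 and 4 matches in 5370 bases, where 45.9% and 51.7% of 1104 genes of similar length held a match. At least as many as in ZEB2 were held by 0.0906% and 1.36% of these genes, ZEB2 included. A match is a description of the sequence, and no messenger RNA was measured here. For each gene and seed, the match nearest the stop codon among those followed by an A is shown in capitals, with its GRCh38 position. Some of the matches not shown are followed by T or G.
ZEB1, chr10:31527619-31527640, plus strand, miR-200b, miR-200c and miR-429 seed: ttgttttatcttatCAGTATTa
ZEB1, chr10:31528783-31528804, plus strand, miR-200a and miR-141 seed: gagatttgatttaaCAGTGTTa
ZEB2, chr2:144388989-144389010, minus strand, miR-200b, miR-200c and miR-429 seed: gcactacaatgcatCAGTATTa
ZEB2, chr2:144389236-144389257, minus strand, miR-200a and miR-141 seed: gcaaaaattttgtaCAGTGTTa

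The deposited values are normalised read counts per mature miRNA, and their totals were between 9833885 and 10519207 in the plus libraries and between 9700472 and 9847531 in the minus libraries. Levels of different strands are compared as read counts without a length correction, since the sequences shown are 22 or 23 bases long, and the ease with which a strand enters a library was not measured. Markers of other cell types did not move in 1 direction. The summed level of 6 stroma and endothelium markers was 14118 to 16937 in the plus and 16466 to 16532 in the minus libraries. The highest of them, miR-145-5p, was at 5843 and 6845 in the plus against 7535 and 7944 in the minus libraries. The lowest, miR-214-3p, was at 1.03 to 4.09 in the plus and 1.88 to 2.02 in the minus libraries. Of the 5 stroma and endothelium markers tested, miR-143-3p (log2 change 0.29) and miR-199a-3p (0.46) rose and miR-145-5p (-0.29) fell (limma, adjusted p = 0.0414, 0.00484 and 0.0125), against 13.4% risen and 15.1% fallen over the 709 miRNAs tested. For miR-143-3p the groups overlapped, at 2857 and 4143 in plus replicates 1 and 2 against 2892 and 2724 in minus replicates 1 and 2. Its rise thus rests on plus replicate 2. The sum of 6 blood markers was 1022 to 1191 in the plus and 991 to 1207 in the minus libraries, and none of the 4 tested passed. The highest of them, miR-486-5p, was at 853 and 998 in the plus against 789 and 1014 in the minus libraries. miR-144-3p was at 0 in plus replicate 2 and minus replicate 2. The 5 colon epithelium markers, miR-200c-3p and miR-141-3p among them, were all detected and summed to between 153723 and 160213 in the plus and between 139165 and 140645 in the minus libraries. Of this, miR-200c-3p alone gave 128692 to 135723 in the plus and 119446 to 122647 in the minus libraries, so the sum is largely that of the family. The part of these markers in the results was not tested.

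The family was abundant in both conditions and slightly more so with induction. Its 9 strands summed to 310919 and 311077 normalised counts in plus replicates 1 and 2, against 276306 and 266235 in minus replicates 1 and 2. Both plus libraries lay above both minus libraries, and the plus pair differed from each other by less than the minus pair. The sum was 1.15-fold higher in plus (log2 difference 0.20, exact two-sided permutation p = 0.333, the smallest that 2 against 2 libraries can give). As a share of all miRNA reads the family made up 3.06% ± 0.145 in plus and 2.78% ± 0.0433 in minus libraries (SD, n = 2 each).

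**Figure D1:**
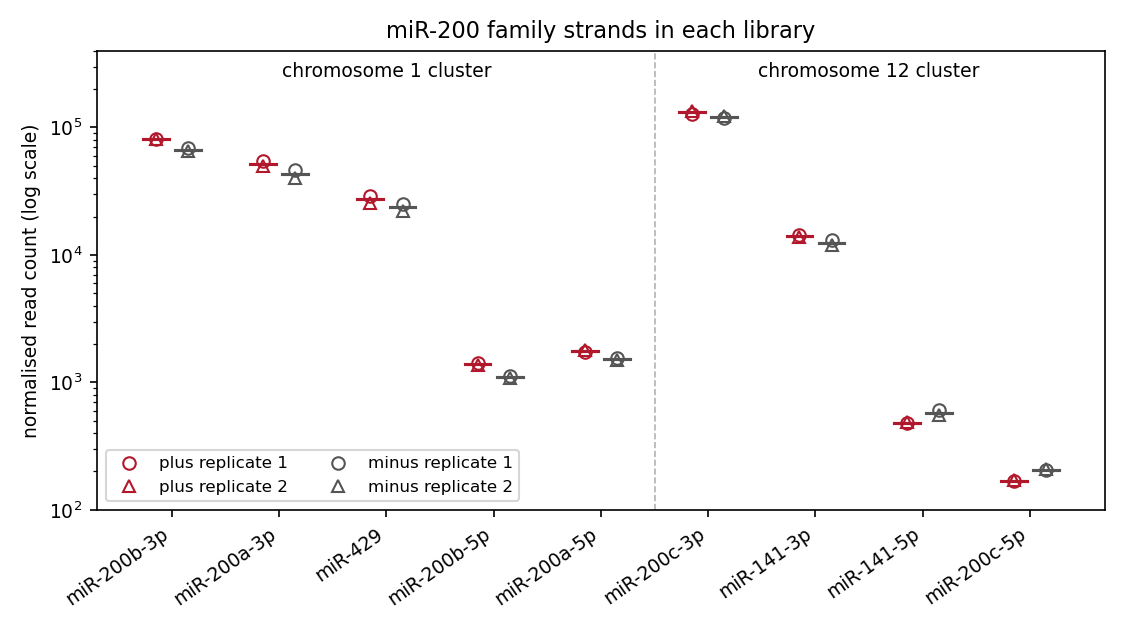
Normalised read count (log scale) of each of the 9 strands in each library, with plus libraries in red, minus libraries in grey, circles for replicate 1, triangles for replicate 2 and a bar at the mean of 2 libraries. miR-200c-3p averages 132207 in plus and 121047 in minus libraries, and miR-141-5p and miR-200c-5p, the lowest strands, are lower in plus while the other 7 are higher.

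The strands kept 1 order of level in every library. miR-200c-3p was the most abundant, at 15th place among all miRNAs by mean, and it was followed by miR-200b-3p (place 32), miR-200a-3p (43), miR-429 (55) and miR-141-3p (68). The 5p strands came after them, with miR-200a-5p at place 149, miR-200b-5p at 164, miR-141-5p at 229 and miR-200c-5p at 316. For every pair of neighbours in this order, the lowest library of the higher strand lay above the highest library of the lower strand. The order did not follow the clusters, since chromosome 12 gave both the first and the last of the main strands.

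Of the 9 strands 3 rose, none fell and 6 did not pass (limma, adjusted p under 0.05). The 3 that rose, miR-200b-3p, miR-200a-3p and miR-200b-5p, all come from the chromosome 1 cluster. Over all 709 miRNAs tested, 13.4% rose and 15.1% fell. Rises were more frequent among abundant miRNAs, with 26.8% risen and 19.5% fallen of the 190 at a mean level of 1000 or more, where 7 of the 9 strands lie. At an unadjusted p under 0.05, 6 strands were higher and 0 lower in plus, against 17.5% higher and 20.5% lower over all tested. Strands from the same hairpin or cluster are not separate observations, so these counts describe the family only. The median log2 change was 0.21 over the family and -0.03 over all miRNAs tested, and it was 0.06 over the 190 abundant miRNAs. The plus and minus libraries did not overlap for any of the 9 strands, with 7 above and 2 below, and this was so for 29.1% (above) and 33.9% (below) of all miRNAs tested, and for 42.6% (above) of the abundant ones.

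miR-200b-3p, whose seed is the one with more matches in ZEB1, stood at 81011 and 81720 normalised counts in plus replicates 1 and 2, against 68528 and 65669 in minus replicates 1 and 2. The plus libraries were nearly equal and both lay well above the minus libraries. It rose by 0.28 ± 0.08 on the log2 scale (estimate ± standard error, limma, adjusted p = 0.00729). Its partner strand miR-200b-5p, which carries a different seed, had 1432 and 1375 in the plus against 1117 and 1082 in the minus libraries. This was the largest change in the family, 0.35 ± 0.11 on the log2 scale (standard error, limma, adjusted p = 0.0114).

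miR-200a-3p, made from the neighbouring hairpin, had 54194 and 50078 normalised counts in the plus libraries, against 46629 and 40317 in the minus libraries. The spread within each group was larger than for miR-200b-3p, and the groups still did not overlap. It rose by 0.26 ± 0.08 on the log2 scale (standard error, limma, adjusted p = 0.0142). Its partner miR-200a-5p had 1739 and 1808 in the plus against 1560 and 1508 in the minus libraries, a log2 change of 0.21 that did not pass (limma, adjusted p = 0.129).

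miR-429, the last hairpin of the chromosome 1 cluster, had 28970 and 25779 normalised counts in the plus libraries, against 25222 and 22274 in the minus libraries. In both groups replicate 1 was the higher, and plus replicate 2 was only slightly above minus replicate 1. Its log2 change of 0.21 did not pass (limma, adjusted p = 0.0656, 95% interval 0.03 to 0.38). With the shRNA line as a block, which takes up the difference between replicates 1 and 2, the adjusted p was 0.0288, and 4 strands of the family rose.

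From the chromosome 12 cluster miR-200c-3p, the member with the highest level, had 128692 and 135723 normalised counts in the plus libraries, against 119446 and 122647 in the minus libraries. The groups did not overlap, and the gap between the nearest plus and minus libraries was smaller than the difference between the plus libraries. Its log2 change of 0.13 was the smallest of the main strands and did not pass (limma, adjusted p = 0.257, 95% interval -0.04 to 0.29). miR-141-3p had 14236 and 13933 in the plus against 12994 and 11979 in the minus libraries, a log2 change of 0.17 that did not pass (limma, adjusted p = 0.118, interval 0.01 to 0.34).

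The 5p strands of this cluster were the only members lower in both plus libraries than in both minus libraries. miR-141-5p had 477 and 490 normalised counts in the plus libraries, against 607 and 550 in the minus libraries. Its log2 change was -0.26 (limma, adjusted p = 0.138, 95% interval -0.51 to 0.00333). miR-200c-5p had 168 and 171 in the plus against 204 and 211 in the minus libraries, a log2 change of -0.29 (limma, adjusted p = 0.208, interval -0.63 to 0.04). Neither passed, and at these levels the fit allows a wider interval than for the main strands.

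**Figure D2:**
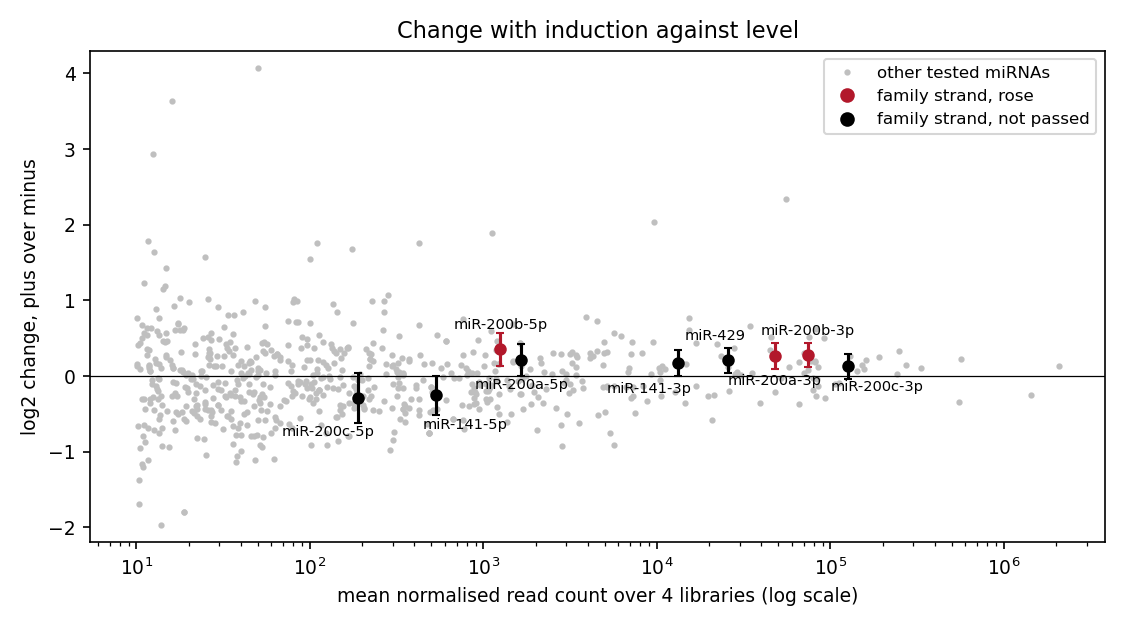
Log2 change, plus over minus, against the mean normalised read count over 4 libraries (log scale) for 709 tested miRNAs, with family strands in red (rose) or black (not passed), bars for the 95% interval of the fit and other miRNAs in grey. The family strands lie between -0.29 and 0.35, within the range of the other miRNAs shown.

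These calls rest on a spread borrowed from other miRNAs and on the scaling of the libraries. None of the 3 rises was called when any of the 4 libraries was left out, and the log2 change then ran from 0.25 to 0.31 for miR-200b-3p, from 0.32 to 0.38 for miR-200b-5p and from 0.16 (without minus replicate 2) to 0.37 for miR-200a-3p. That of miR-429 ran from 0.12, without minus replicate 2 or without plus replicate 1, to 0.30. After quantile normalization it was 0.034 for miR-200a-3p and 0.077 for miR-429, and neither passed. Under median-ratio scaling 6 strands rose, and with equal totals 1 did, miR-200b-3p.

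A ratio of strands from 1 hairpin does not depend on the scaling of the libraries. There were 183 hairpins that had both strands at the level of the filter, and limma was run on the log2 ratio of minor to main strand over all of them, a test added after the values had been seen. Over these hairpins 15.8% fell and 3.83% rose, and the median log2 change was -0.06. In the family, the ratio of miR-141 fell and the other 3 ratios did not pass. For miR-141 and miR-200c both plus libraries lay below both minus libraries, as they did for 35.5% of the 183 hairpins.

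For miR-141 there were 3.35 and 3.52 reads of the 5p strand per 100 reads of the 3p strand in plus replicates 1 and 2, against 4.67 and 4.59 in minus replicates 1 and 2. The groups were far apart beside the difference within each. On the log2 scale the ratio changed by -0.43 ± 0.13 (standard error, limma, adjusted p = 0.00695). With the line as a block the adjusted p was 0.0976, and in that fit 0 of the 183 ratios were called by limma, with 42 at an unadjusted p under 0.05. The call was also lost without any of the 4 libraries, with log2 changes between -0.47 and -0.40.

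For miR-200c the ratio was 0.130% and 0.126% in the plus libraries, against 0.170% and 0.172% in the minus libraries. This log2 change of -0.42 was close to that of miR-141, and it did not pass (limma, adjusted p = 0.0544, 95% interval -0.74 to -0.09). The 5p strand of miR-200c was scarce in both conditions, with the ratio in 8th place from the lowest among the 183 hairpins.

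On chromosome 1 the ratios moved less. For miR-200a the ratio was 3.21% and 3.61% in the plus libraries, against 3.35% and 3.74% in the minus libraries, so the groups overlapped. Its log2 change was -0.06 (limma, adjusted p = 0.854, interval -0.26 to 0.15). For miR-200b it was 1.77% and 1.68% in the plus against 1.63% and 1.65% in the minus libraries, a log2 change of 0.07 (limma, adjusted p = 0.775, interval -0.14 to 0.29). Both plus libraries thus lay slightly above both minus libraries for miR-200b, the opposite direction to miR-141 and miR-200c. The difference between the clusters in this ratio was not tested.

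**Figure D3:**
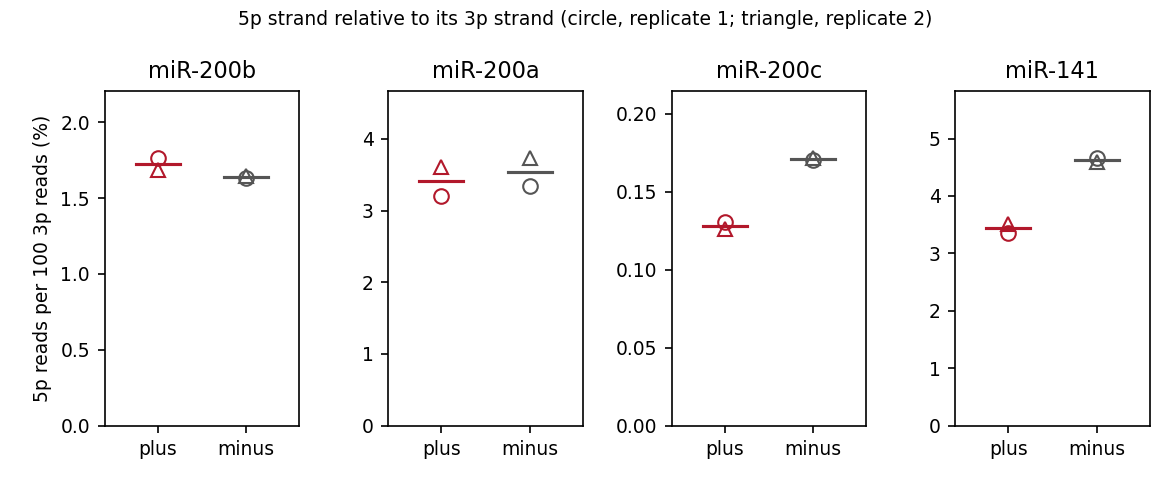
Reads of the 5p strand per 100 reads of the 3p strand (percent, each axis from 0) for 4 hairpins, with plus in red on the left, minus in grey on the right, circles for replicate 1, triangles for replicate 2 and bars at the mean. The plus libraries lie below the minus libraries for miR-200c and miR-141, by 0.128% against 0.171% and 3.44% against 4.63% on average. They lie slightly above for miR-200b, and the groups overlap for miR-200a.

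The balance between the clusters did not separate the groups. Chromosome 1 strands summed to 167347 and 160761 normalised counts in the plus libraries, against 143055 and 130849 in the minus libraries, a log2 difference of 0.26. Chromosome 12 strands summed to 143572 and 150316 in the plus against 133251 and 135386 in the minus libraries, a log2 difference of 0.13. Chromosome 12 thus gave 46.2% and 48.3% of the family sum in the plus libraries, against 48.2% and 50.9% in the minus libraries. Plus replicate 2 lay just above minus replicate 1, so the groups overlapped (exact two-sided permutation p = 0.667). In both groups replicate 1 had the smaller share from chromosome 12, and the share was lower in plus within each line, by -2.05 percentage points in sh1 and -2.53 in sh2.

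The balance between the seeds hardly moved. Strands with the seed of miR-200b, miR-200c and miR-429 made up 76.8% and 78.2% of the family sum in the plus libraries, against 77.2% and 79.1% in the minus libraries. The groups overlapped (exact two-sided permutation p = 0.667), and the difference of -0.65 percentage points was smaller than the SD in either group. Within the lines it was -0.40 in sh1 and -0.91 in sh2. Strands with the seed of miR-200a and miR-141 made up 21.3% ± 1.01 in plus and 20.6% ± 1.37 in minus libraries (SD, n = 2 each). Among single strands, miR-200b-3p took 26.1% and 26.3% of the family sum in the plus libraries, against 24.8% and 24.7% in the minus libraries, without overlap. The share of miR-200c-3p was 41.4% and 43.6% in the plus against 43.2% and 46.1% in the minus libraries, with overlap between the groups and a difference of -1.84 percentage points within sh1 and -2.44 within sh2. With 1 library per line and condition these within-line differences have no test that can pass.

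**Figure D4:**
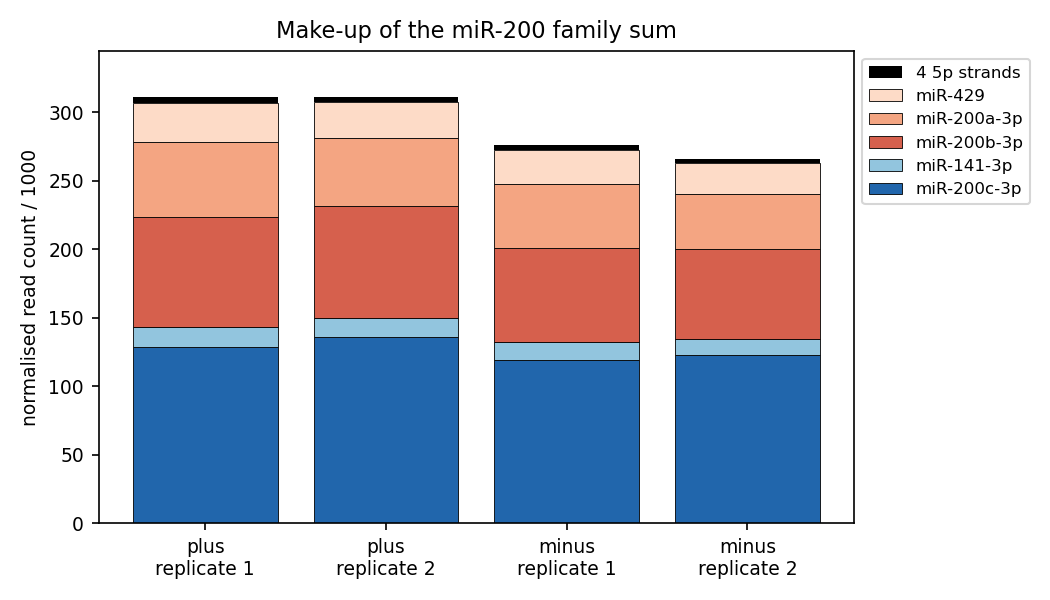
Normalised read count, divided by 1000, of the family in each library, stacked by main strand, with chromosome 12 strands in blue, chromosome 1 main strands in red tones and the 4 5p strands together in black. The plus bars reach 310919 and 311077 normalised counts and the minus bars 276306 and 266235, and the 5p strands make up 1.23% of the sum in plus and 1.26% in minus libraries.

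The change had the same direction in both lines for every strand. This follows from the lack of overlap between the groups and adds no separate support. Within the line with sh1, as placed by elimination, the log2 differences of the 7 higher strands ran from 0.11 for miR-200c-3p to 0.36 for miR-200b-5p, and within sh2 from 0.15 to 0.35 for the same strands. miR-141-5p was at -0.35 in sh1 and -0.16 in sh2, and miR-200c-5p at -0.28 and -0.30. With 1 library per line and condition these differences have no test.

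The miRNAs whose pattern over the 4 libraries was most like that of the family sum were sought among 183 other miRNAs at a mean level of 1000 or more. Likeness was the root mean square difference of log2 values centred on their mean. On the log2 scale the nearest were let-7b-5p at 0.03, miR-99b-5p at 0.03 and miR-378a-5p at 0.04. let-7b-5p, a member of the let-7 family, had 14688 and 14768 normalised counts in the plus libraries against 12955 and 13097 in the minus libraries, a log2 change of 0.18 that did not pass (limma, adjusted p = 0.108). miR-99b-5p, of the miR-99/100 family, rose with a log2 change of 0.25 (limma, adjusted p = 0.0149), and miR-378a-5p was at 0.16 and did not pass (limma, adjusted p = 0.293). With 4 libraries such likeness is a description only.

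Among other miRNAs linked to epithelial identity, more rose than fell, in a list chosen with earlier results of these data known. The counts therefore describe the listed miRNAs only. Of the 17 miRNAs listed 10 rose, 3 fell and 4 did not pass, with a median log2 change of 0.31. Over all tested 13.4% rose and 15.1% fell. Most of the 17 are among the 190 miRNAs at a mean level of 1000 or more, of which 26.8% rose and 19.5% fell. Near the family in size of change were miR-203, a miRNA of skin and other epithelia, at 0.26 and miR-183-5p at 0.31. The other rises were miR-30c-5p at 0.42, miR-96-5p at 0.51, miR-182-5p at 0.63, miR-215 at 0.71, miR-194-5p at 0.72, miR-34a-5p at 0.76, miR-192-5p at 0.78 and miR-34c-5p at 1.76. miR-192-5p, miR-194-5p and miR-215 are intestinal miRNAs that are also linked to p53, and miR-34a-5p and miR-34c-5p are induced by p53. The part of p53 in these rises was not tested. The falls were miR-30a-5p at -0.27, miR-148a-3p at -0.29 and miR-335-5p at -0.35. For miR-148a-3p plus replicate 1 was at 73576 and plus replicate 2 at 94965, against 101643 and 103464 in the minus libraries, so plus replicate 2 lay much closer to the minus libraries.

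miRNAs linked to the mesenchymal state, listed with the same earlier results known, did not move the other way. Of 10 listed 8 were tested, of which 5 rose and 3 did not pass, with a median log2 change of 0.22. Both plus libraries lay above both minus libraries for all 8, which was so for 42.6% of the 190 miRNAs at a mean level of 1000 or more, of which 26.8% rose. The rises were miR-222-3p and miR-221-3p at 0.22 each, miR-107 at 0.31, miR-9-5p, which targets E-cadherin mRNA, at 0.44 and miR-27a-3p at 0.51. miR-21-5p, the miRNA with the highest level in the table, was at 0.13 and did not pass (limma, adjusted p = 0.289). miR-155-5p and miR-373-3p were below the level filter, at no more than 2.04 normalised counts in any library. The numbers called in both lists depended on the settings. Without a mean-variance trend 1 rise was left in the epithelial list and 0 in the mesenchymal list. With equal totals 2 rose in the mesenchymal list, and under median-ratio scaling 1 fell in the epithelial list. With 1 library left out, 2 to 8 rose and 0 to 1 fell in the epithelial list, and 0 to 3 rose in the mesenchymal list.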

How the data were processed

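The authors deposited 1 table of normalised read counts per mature miRNA, a signal read here as counts adjusted to a near-common library size, which rests on the values. Reads were trimmed with cutadapt per the labels' sample titles. Per the submitters' processing notes, TopHat2 2.0.8b and edgeR were among the tools and hg19 and GRCh37 the genome builds, with no role stated. Which counter and which miRNA annotation were used is not given in the sources used here. Column names write sh4 where titles write sh2, and columns were matched by library number and index.

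The values were tested with limma 3.58.1 (R 4.3.3) after a log2(value + 1) transform, letting the prior variance follow the mean level, for plus against minus in the 4 libraries, two-sided, with Benjamini-Hochberg adjustment over the 709 rows whose mean reached 10 and a threshold of 0.05. A fold change on this scale understates the change of low miRNAs. The fit had 2 residual and 43.0 prior degrees of freedom. Strand ratios were fitted the same way over 183 hairpins, with the trend over the level of the minor strand. Sums and shares were tested by exact permutation. Alternatives were scaling (median ratio, TMM, equal totals, quantile), pseudocount, filter, trend, the line as a replicate block, and leaving out each library.

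Replicate numbers mark the shRNA line, given by the labels for all libraries but plus replicate 1. Over 386 miRNAs with a mean of at least 100, the differences between replicates in plus and in minus correlated at 0.15. Chi-square per degree of freedom was 68.7 between plus libraries and 20.0 between minus libraries, so neither pair was 1 library deposited in duplicate. The text names all family rows, the 3 miRNAs nearest in pattern, and of both lists those past the threshold and the 3 with the highest mean. Members and lists were chosen with earlier results of these data known. Depth limits precision at low levels, and intervals cover the fit only.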

Additional observations from a re-analysis of the deposited data

Results flagged for a closer look

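The share of miR-429 in the family sum was flagged because it moved in opposite directions in the lines. It was 9.32% in plus replicate 1 and 9.13% in minus replicate 1, a difference of 0.19 percentage points in the line with sh1, as placed by elimination. It was 8.29% in plus replicate 2 and 8.37% in minus replicate 2, a difference of -0.08 in the line with sh2. The lines thus differed by 0.27 percentage points, and this difference was not tested.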

How the results depend on the processing

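The number of miRNAs called, 202 as reported, was 103 after quantile normalization and 5 both with no level filter and with no mean-variance trend. Of the family, 6 strands rose under median-ratio scaling, 1 each with equal totals and after quantile normalization, and 0 both with no level filter and with no trend, where 5 and 1 strands were higher and 2 and 0 lower at an unadjusted p under 0.05. With equal totals 3 were higher and 2 lower at that p. With 1 library left out, between 7 and 115 miRNAs and 0 strands of the family were called, with 1 to 4 strands higher at an unadjusted p under 0.05. Leaving out a library leaves 1 in its group, assumed to vary like the others. No strand of the family fell in any of the 14 alternatives. miR-200b-3p was called in 8 of them, with limma adjusted p from 0.00183 to 0.191 with all libraries. miR-200a-3p and miR-200b-5p were each called in 6. After quantile normalization miR-141-3p was at -0.053. Scaling moved the median log2 change of all miRNAs tested from -0.09 with equal totals to 0.03 under the median ratio. With the replicate block, 216 miRNAs and 4 family strands were called, miR-429 became a rise (adjusted p = 0.0288) and the ratio of miR-141 lost its call (adjusted p = 0.0976). The block changed no other call of the family. The family sum stayed higher in plus, at log2 differences of 0.14 to 0.26. The chromosome 12 share stayed lower, at -3.60 to -0.98 percentage points with 1 library left out. The seed share of miR-200b, miR-200c and miR-429 turned to 0.06 without plus replicate 1 and 0.32 without minus replicate 2 (range from -1.62). With 1 library left out the log2 change of the miR-200a ratio ran from -0.14 to 0.029, above 0 without minus replicate 2 (0.025) and without plus replicate 1. The cause of these shifts was not tested.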
